A study of Caenorhabditis elegans with 2 samples.

Results

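The nuclear hormone receptor genes of Caenorhabditis elegans were examined for binding of the transcription factor SKN-1. They were chosen by name alone: every protein-coding gene whose symbol in the WBcel235 gene annotation is nhr- followed by a number. This gave 269 genes of 19973 nuclear protein-coding genes. A receptor was called bound where the summit of a SKN-1 peak, the position of its highest signal, fell in the promoter window of the gene, which runs from 1000 bp before any of its annotated 5′ ends to 200 bp after it. Of the 269 receptors, 23 were bound in the authors' list of peaks thresholded for reproducibility. A place in that list does not mean that both replicates held the peak. For 5 of the 23, replicate 1 had no summit within 100 bp. In falling order of signal the 23 are nhr-104, nhr-182, nhr-49, nhr-47, nhr-228, nhr-57, nhr-68, nhr-1, nhr-291, nhr-177, nhr-48, nhr-35, nhr-142, nhr-237, nhr-209, nhr-119, nhr-255, nhr-13, nhr-50, nhr-158, nhr-40, nhr-203 and nhr-12.

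The peaks came from chromatin immunoprecipitation followed by sequencing (ChIP-seq), directed at eGFP-tagged SKN-1, in whole third-stage (L3) larvae. The larvae were of mixed sex and came from strain OP342, whose genotype combines unc-119(ed3) on chromosome III with wgIs342, which is labelled as an insertion for skn-1. The labels name no promoter for it and do not say whether untagged SKN-1 is also present. The series holds 1 group of 2 biological replicates and no second condition, so the comparisons are between receptors and other genes and between the replicates. In whole animals, strong binding in few cells and weak binding in many cannot be told apart, and peak lists hold no expression values against which the labelled tissue could be checked. The authors deposited a peak list for each replicate, a pooled list, and a list thresholded by the irreproducible discovery rate (IDR), which measures how well peak ranks repeat between replicates. The signal value of a peak is the authors' own score and was used only to rank and describe peaks within a list.

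Nuclear hormone receptors are transcription factors that join a zinc-finger DNA-binding domain to a pocket for small lipophilic ligands, and they couple metabolites, steroids and foreign compounds to gene expression. Nematodes carry a greatly expanded family, most of it related to the HNF4 type of receptor, beside a small set with clear relatives in insects and vertebrates. SKN-1, the worm relative of the Nrf factors of vertebrates, specifies gut precursors in the embryo and later drives detoxification, oxidative stress and lipid genes. It binds DNA without a leucine zipper, at a site whose core is a short AT-rich stretch followed by TCAT.

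The bases under the receptor summits are shown first because 10 of the 23 held a SKN-1 consensus, and the sequences let that match be seen. The consensus was searched on both strands as 8 words of 8 letters, AATATCAT, AATGTCAT, ATTATCAT, ATTGTCAT, TATATCAT, TATGTCAT, TTTATCAT and TTTGTCAT, with the centre of the word within 50 bp of the summit. All of them end in TCAT. Sequences are given 5′ to 3′ on the strand of the receptor gene, from the RefSeq sequence of WBcel235 (ce11), and run up to 60 bp to either side of the summit, without annotated untranslated exon sequence. At nhr-104 the whole stretch was annotated as 5′ untranslated exon, so only the site and its flanks are given. At nhr-182 only the part that holds the site is given. The bases shown for nhr-104 and nhr-182 do not include the summit, which lay 25.5 and 41.5 bp upstream of the consensus centre. Capitals mark the consensus.
nhr-104, chrIV:4788485-4788514, minus strand: aaaacattggaAATATCATcatttggtcga
nhr-182, chrV:2259860-2259889, minus strand: gtaagttctatgcctTTTGTCATcatttat
nhr-228, chrV:2281677-2281758, plus strand: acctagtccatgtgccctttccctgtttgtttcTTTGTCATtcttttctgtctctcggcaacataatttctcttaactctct
nhr-57, chrV:4131684-4131804, plus strand: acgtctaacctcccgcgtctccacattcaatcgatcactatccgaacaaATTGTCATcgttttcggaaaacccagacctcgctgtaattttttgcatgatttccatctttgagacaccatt
nhr-68, chrV:11573011-11573131, plus strand: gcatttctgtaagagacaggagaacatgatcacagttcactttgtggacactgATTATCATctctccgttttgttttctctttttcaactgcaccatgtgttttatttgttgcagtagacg
nhr-291, chrV:15318732-15318852, plus strand: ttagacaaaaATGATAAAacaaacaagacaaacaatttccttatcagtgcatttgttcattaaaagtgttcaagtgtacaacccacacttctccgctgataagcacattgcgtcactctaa
nhr-237, chrV:1627389-1627509, minus strand: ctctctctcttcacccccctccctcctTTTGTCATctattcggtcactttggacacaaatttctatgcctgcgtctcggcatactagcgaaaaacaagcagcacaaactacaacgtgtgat
nhr-209, chrV:12098052-12098148, plus strand: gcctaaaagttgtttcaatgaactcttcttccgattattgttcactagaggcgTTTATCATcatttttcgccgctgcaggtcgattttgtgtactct
nhr-119, chrII:2800902-2801022, minus strand: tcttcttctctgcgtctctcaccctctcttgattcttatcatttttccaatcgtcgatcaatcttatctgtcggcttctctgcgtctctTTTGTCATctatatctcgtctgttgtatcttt
nhr-12, chrV:10084232-10084352, minus strand: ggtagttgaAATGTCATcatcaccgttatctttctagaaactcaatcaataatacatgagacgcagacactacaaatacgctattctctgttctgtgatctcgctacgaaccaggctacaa

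In 9 of these 10 receptors the word read TCAT along the direction of transcription, and at nhr-291 it lay on the opposite strand. The words at nhr-182, nhr-228, nhr-237 and nhr-119 were the same, TTTGTCAT, and no summit held a second match. A receptor pair with high signal but no consensus within 50 bp is given for contrast.
nhr-47, chrV:5505182-5505252, plus strand: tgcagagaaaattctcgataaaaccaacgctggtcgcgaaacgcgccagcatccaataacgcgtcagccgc
nhr-1, chrX:17513673-17513793, plus strand: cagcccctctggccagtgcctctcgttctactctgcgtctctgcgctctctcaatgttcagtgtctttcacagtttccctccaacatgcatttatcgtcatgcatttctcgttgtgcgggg

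The receptors as a set were bound about as often as any gene. In the IDR list of 1778 peaks, 23 of 269 receptors had a promoter summit, 8.55% (95% Wilson interval 5.76 to 12.5%), beside 7.75% of all protein-coding genes (1547 of 19973). Among the 3047 lines of the pooled list whose q-value stood at its ceiling, 32 receptors had one, 11.9% beside 12.2% of all genes. At the full length of the pooled list, 30000 lines that include background by the authors' description, the count was 138 receptors, 51.3% beside 45.8% of all genes. The intervals cover counting error only and treat genes as independent, which neighbouring genes are not.

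The replicates differed in how many receptors they placed high. Among the 1778 lines of highest signal in each replicate list, replicate 1 had 12 receptors, 4.46% beside 6.81% of all genes, and replicate 2 had 21, 7.81% beside 7.67%. At full length, the 22350 lines of replicate 1 reached 112 receptors, 41.6% beside 36.3% of all genes. The 30000 lines of replicate 2 reached 140, 52.0% beside 45.4%. In both replicate lists 87 receptors had a promoter summit, 25 only in replicate 1 and 53 only in replicate 2, and 98 receptors had none in any list. In the IDR list and in the highest lines of both replicates, promoter summits of 9 receptors were present: nhr-104, nhr-182, nhr-49, nhr-47, nhr-228, nhr-68, nhr-1, nhr-48 and nhr-142.

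**Figure D1:**
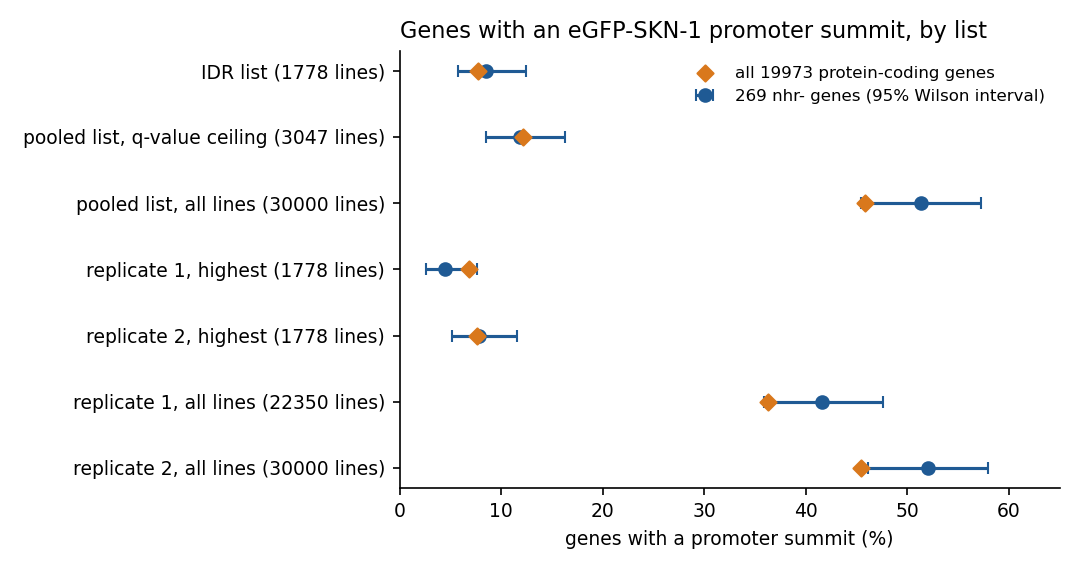
Percent of genes with an eGFP-SKN-1 promoter summit (x axis) in each ce11 list (y axis, with its number of lines). Circles are the 269 nhr- genes with 95% Wilson intervals and diamonds all 19973 protein-coding genes; in the IDR list the values are 8.55 and 7.75%.

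A list of 20 receptors linked to lipid, propionate, hypoxia or stress responses was drawn up from general knowledge. It was chosen with earlier results of these data known, and its shares depend on that membership. Of the 20, 4 were bound, 20% beside 7.75% of all genes. Among the highest 1778 lines, replicate 1 had 2 of the 20, 10% beside 6.81% of all genes. Replicate 2 had 5, 25% beside 7.67%. Receptors outside this list and outside the list of conserved receptors were bound in 18 cases, 7.53%. At any rank of the pooled list, 18 of the 20 had a promoter summit, 90% beside 45.8% of all genes, and only nhr-10 and nhr-76 had none. Several of the 20 have more than 1 annotated 5′ end and so a longer promoter window, whose part in this share was not tested. nhr-8 stands both in this list and among the conserved receptors. With 20 genes and 4 bound, the share in the IDR list rests on few members, and no test was run on the list.

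nhr-49, an HNF4-type receptor that controls fatty acid desaturation and oxidation and the response to fasting, ranked 236 in the IDR list with a signal of 63.3. Its summit, at position 9869367 of chromosome I, lay 284 bp upstream of the nearest of 6 annotated 5′ ends, between genes. The replicate ranks were 1390 in replicate 1 and 164 in replicate 2. No consensus lay within 50 bp. A second nhr-49 summit, near another of its 5′ ends, ranked 2598 in the pooled list, below the IDR list, and had a replicate 1 match at rank 3804 but no replicate 2 match.

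nhr-57, which is induced in low oxygen through HIF-1, ranked 295 with a signal of 58.1, and its summit lay 145 bp upstream of its single 5′ end. It was among the highest in replicate 2, at rank 193 and at the same base as the IDR summit. In replicate 1 no summit lay within 100 bp, and the nearest stood 179 bp further upstream at rank 2996. The consensus word, ATTGTCAT, lay close to the centre of the peak, as the sequence above shows.

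nhr-68, which acts with nhr-10 to turn on the propionate shunt when propionate accumulates, ranked 407 with a signal of 52.8. It was supported in both replicates, at rank 308 in replicate 1 and 699 in replicate 2. The summit lay 369 bp upstream of nhr-68 and 81 bp upstream of H12C20.7, so it falls in the windows of both genes and is nearer to the other one. Its partner nhr-10 had no promoter summit in the pooled list, although with a window reaching 2000 bp upstream it was bound in the IDR list.

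nhr-13, reported as a binding partner of NHR-49, was the lowest of the 4, at rank 1526 with a signal of 29.1 and 207 bp upstream. In replicate 2 it ranked 1122 at the same base. In replicate 1 the nearest summit was 104 bp away at rank 12835, outside the distance counted as a match. Of the other NHR-49 partners, nhr-80, which shares the control of fatty acid desaturation, had its best pooled promoter summit at rank 3248, and nhr-66 had its best promoter summit at rank 2572, both below the IDR list.

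Of 11 receptors with clear relatives outside nematodes, a list also drawn from general knowledge, 1 was bound, 9.09% beside 7.75% of all genes. This was nhr-48, of the same subfamily as the dafachronic acid receptor DAF-12, at rank 753 with a signal of 40.9 and 596 bp upstream. Its ranks were close in the 3 lists, 955 in replicate 1 and 803 in replicate 2. The pooled list held promoter summits of 6 of the 11, 54.5% beside 45.8% of all genes. nhr-8, a receptor of that subfamily with roles in sterol balance and drug resistance, was nearest to the threshold at pooled rank 2858. nhr-23, the ROR relative that drives the moulting cycle, stood at 8018, and nhr-25, the Ftz-F1 relative of the epidermis, at 18831. nhr-111 and nhr-239 had no promoter summit in any list.

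The highest receptor was nhr-104, at rank 100 of 1778 with a signal of 88.9 and a summit at chrIV:4788525-4788525. Replicate 1 ranked it 234 and replicate 2 ranked it 90. Next came nhr-182 at rank 190 (signal 68.4), with the highest replicate 1 rank of any receptor promoter summit, 155, and rank 225 in replicate 2. The nhr-182 peak was 99 bp wide, while the other 22 receptor peaks had the usual width of 330 bp. Both summits lay close to an annotated 5′ end, at 42 bp upstream and 15 bp downstream, and inside an exon of the receptor itself.

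nhr-47 ranked 274 (signal 59.8) with its summit 11 bp upstream, a position also 385 bp upstream of dnj-19, and it ranked 186 in replicate 1 and 446 in replicate 2. nhr-228 ranked 282 (signal 59.2) with its summit 22 bp upstream, and its replicate ranks, 1028 and 213, were further apart. nhr-1 ranked 441 (signal 50.9), 330 bp upstream, with replicate ranks of 596 and 1161. These receptors stood in the highest 1778 lines of both replicates.

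At some other receptors the replicate ranks lay far apart. nhr-291 at rank 672 (signal 42.9) ranked 7932 in replicate 1 and 558 in replicate 2, nhr-237 at rank 1089 (signal 34.5) ranked 5121 and 792, and nhr-119 at rank 1420 (signal 30.2) ranked 5144 and 1079. The widest gap between matched summits was at nhr-50, rank 1542 (signal 28.9), which stood at 13986 in replicate 1 and 1373 in replicate 2. A stronger replicate 1 summit in the nhr-50 promoter window, at rank 5401, lay outside the distance counted as a match. At each of these receptors the better rank was in replicate 2, whose list also had the larger number of lines. By contrast nhr-142 at rank 984 (signal 36.02), whose summit is nearer to F44E7.9 than to the receptor, ranked 1363 and 1142, and nhr-158 at rank 1661 (signal 27.97) ranked 1435 and 2016.

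nhr-177 at rank 689 (signal 42.4) had its summit 6 bp inside the gene and ranked 2196 in replicate 1 and 1136 in replicate 2. nhr-209 at rank 1142 (signal 33.6), 37 bp upstream, ranked 1770 and 2098. nhr-203 at rank 1699 (signal 27.7), 69 bp upstream, ranked 2440 and 2938 and so stood below line 1778 in both replicates. The same held for nhr-40, a receptor required for muscle and larval development, which stood at rank 1693 (signal 27.7) with replicate ranks of 2288 and 2010.

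In 5 receptors replicate 1 had no summit within 100 bp: nhr-57, nhr-35, nhr-255, nhr-13 and nhr-12. For nhr-35, rank 859 with a signal of 38.2, the nearest replicate 1 summit was 118 bp further upstream at rank 1833, and for nhr-255, rank 1421, it was 119 bp away at rank 1929, so both missed the distance narrowly. nhr-12, rank 1739 with a signal of 27.3 and the lowest receptor promoter summit of the list, had its nearest 178 bp away at rank 7959. All 5 were matched in replicate 2. The nhr-255 summit also lay inside or within 200 bp of a tRNA, snoRNA, snRNA or rRNA gene, the only receptor promoter summit to do so.

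**Figure D2:**
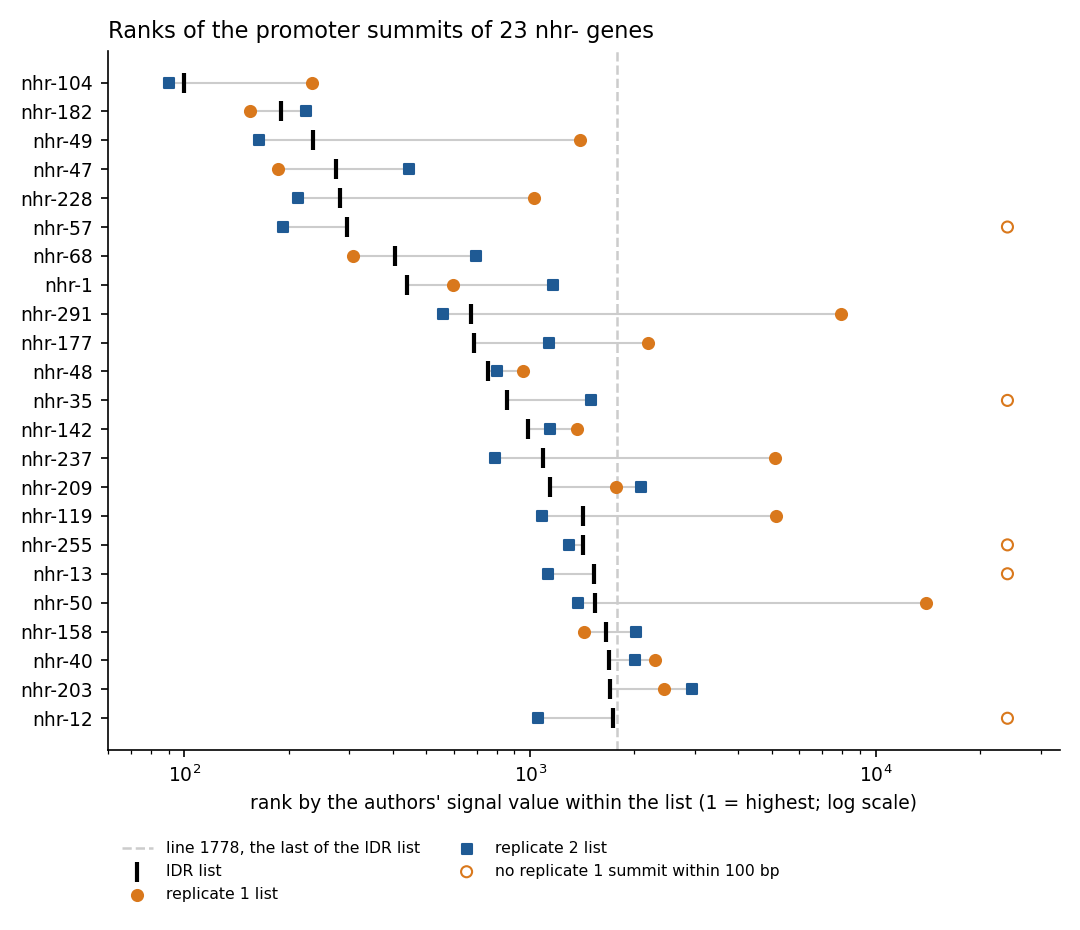
Rank by the authors' signal value (x axis, log scale, 1 is highest) of the promoter summit of each bound receptor (y axis, in order of the IDR list) in the IDR list (bars), replicate 1 (circles) and replicate 2 (squares). Open circles at the right edge mark the 5 receptors with no replicate 1 summit within 100 bp and have no rank; the dashed line is rank 1778.

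Replicate support was counted over all 23 summits. In replicate 2 a summit lay within 100 bp for 23 of 23, and for 98.9% of the 1148 other promoter summits of the IDR list. In replicate 1 this held for 18 of 23, 78.3%, and for 87.7% of the others. Among the highest 1778 lines, replicate 2 held 19 (82.6%, others 82.7%) and replicate 1 held 11 (47.8%, others 60.1%). The median IDR rank of receptor summits was 859, beside 852.5 for the others. The median replicate 1 rank of matched summits was 1412.5, beside 1008, and the median replicate 2 rank was 1079, beside 855. By median rank the receptors therefore sat at the middle of the IDR list and somewhat lower in both replicates than other promoter summits. Read depth is unknown from these lists, and its part in the gap between replicates was not tested.

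Receptor promoter summits stood on both sides of the threshold of the IDR list. Just inside it were nhr-40 at pooled rank 1693 (signal 27.7), nhr-203 at 1699 and nhr-12 at 1739 (signal 27.3). Just outside were nhr-17 at 1792 (signal 26.8), nhr-184 at 1995 (signal 25.2) and nhr-88 at 2000 (signal 25.2). This nhr-17 summit ranked 1033 in replicate 2 and had no replicate 1 match. nhr-184 was the only receptor with a promoter summit among the highest 1778 lines of replicate 1, at rank 1035, and none in the IDR list. In total, 9 receptors had a promoter summit at the q-value ceiling of the pooled list and none in the IDR list: nhr-17, nhr-184, nhr-88, nhr-58, nhr-28, nhr-66, nhr-92, nhr-134 and nhr-8. nhr-17 and nhr-66 did have intronic summits in the IDR list, which are described with those of other receptors.

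Summits stood mostly between protein-coding genes, the only genes used for these positions. Of the 23, 19 were intergenic, 3 lay in an exon (nhr-104, nhr-182 and nhr-177) and 1 in an intron (nhr-40). They ran from 629 bp upstream to 15 bp downstream of the nearest 5′ end, and the median one was that of nhr-35, while the median of the other promoter summits lay 202 bp upstream. Within 100 bp of the 5′ end lay 8 of 23 (34.8%), beside 23% of the others. Another protein-coding gene shared the window in 4 of 23 cases (17.4%: nhr-47, nhr-68, nhr-142 and nhr-12), beside 34.1%. Many worm transcripts are trans-spliced, so an annotated 5′ end need not be a start of transcription.

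Bound receptors also had more annotated 5′ ends. More than 1 was annotated for 16 of 23 bound receptors (69.6%) and for 79 of 246 others (32.1%). More 5′ ends give a longer window, with a median of 1269 bp in the bound and 1201 bp in the others, and its part in the count was not tested. When only the most upstream 5′ end of each gene was used, 22 receptors were bound, without nhr-40.

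**Figure D3:**
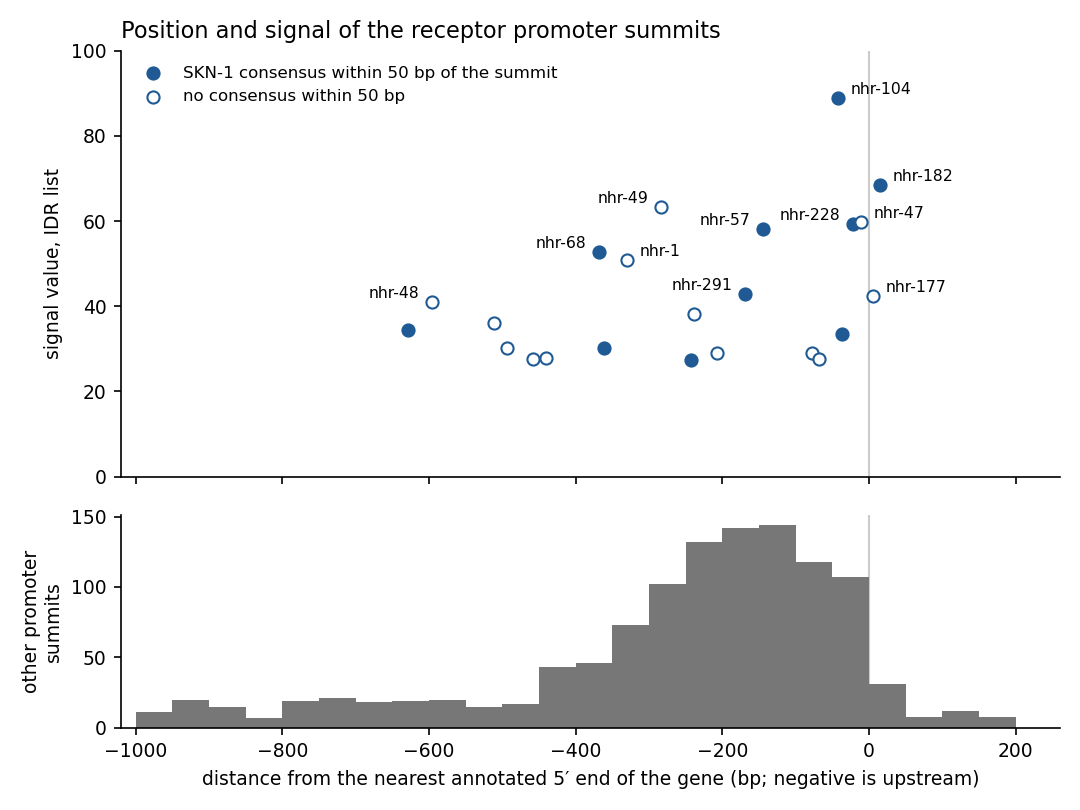
Upper panel: authors' signal value in the IDR list (y axis) of the 23 receptor summits against the distance to the nearest annotated 5′ end in bp (x axis, negative is upstream); filled circles hold the SKN-1 consensus within 50 bp. Lower panel: number of the 1148 other promoter summits per 50 bp of distance; receptor summits run from 629 bp upstream to 15 bp downstream.

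The SKN-1 consensus was more frequent under receptor summits than under the other promoter summits. It lay within 50 bp of 10 of 23 receptor summits, 43.5% (95% Wilson interval 25.6 to 63.2%), and of 136 of 1148 others, 11.8% (10.1 to 13.8%). The intervals treat summits as independent, but 12 of the 23 bound receptors had another receptor gene within 10 kb. Such neighbours can share sequence. In windows of the same length centred 200 bp upstream of every protein-coding gene it occurred in 6.26%, and upstream of the 246 receptors with no promoter summit in the IDR list in 15, or 6.10%. Of those 246 receptors, 131 had no promoter summit in the pooled list either, and the others had one. No test was run, and the match of letters does not show a site that is used.

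The difference between receptor and other summits had the same direction in every subset counted except chromosome X. On chromosome V 8 of 15 receptor summits held the consensus, 53.3%, beside 11.4% of 158 others. On X 0 of 5 did, beside 9.94% of 181 others, and the interval for 0 of 5 reaches 43.4%. Summits in the window of a single gene had it in 8 of 19 receptor cases (42.1%), beside 13.1% of the others. In the upper 889 lines of the list by signal it was in 6 of 12 (50%), beside 15.4%, and in the lower lines in 4 of 11 (36.4%), beside 8.01%. With the highest 1778 lines of replicate 1 alone the shares were 33.3% and 9.48%, and with those of replicate 2 alone 40.9% and 11.9%.

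**Figure D4:**
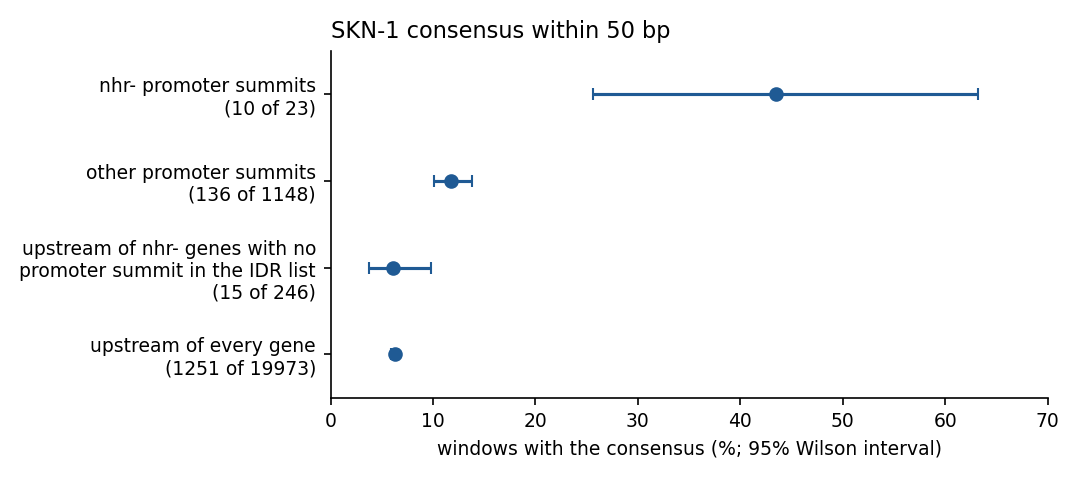
Percent of windows (x axis) that hold the SKN-1 consensus within 50 bp of the summit or window centre, with 95% Wilson intervals and counts beside each row. Receptor summits stand at 43.5%, other promoter summits at 11.8%, and windows upstream of receptors with no promoter summit in the IDR list and of every gene at 6.10 and 6.26%.

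Bound receptors, like the family, lay mostly on chromosome V, and the shares by chromosome rest on few bound genes. Chromosome V carries 167 of the 269 receptors, 62.1%, and 15 of the 23 bound ones. There 8.98% of receptors were bound, beside 4.50% of other genes on that chromosome. The X chromosome had the highest share, 5 of 23 receptors (nhr-1, nhr-48, nhr-35, nhr-255 and nhr-40), 21.7% beside 7.24%. In the pooled list 20 of the 23 receptors on X had a promoter summit, 87.0% beside 50% of other genes. On chromosome I the order was the other way, with 1 of 23 bound (nhr-49), 4.35% beside 10.8%, and 5 of 23 in the pooled list, 21.7% beside 51.0%. On chromosome IV 1 of 33 was bound, 3.03% beside 7.24% of other genes there. On II 1 of 15 was bound, 6.67% beside 7.45%, and on III 0 of 8, beside 11.9%.

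Many receptors of the nematode expansion sit in tandem. Receptors at most 10 kb apart formed 44 clusters with 159 members, of which 12 were bound, 7.55%. Of the 110 receptors outside clusters, 11 were bound, 10%. In the pooled list 48.4% of clustered receptors and 55.5% of the others had a promoter summit, beside 45.8% of all genes. A bound member was found in 10 clusters, 9 of them on chromosome V. Within a cluster the bound gene was usually single, and 2 clusters held 2 bound genes each.

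The pair nhr-182 and nhr-228 belonged to a cluster of 9 receptors at chrV:2257420-2296977, of which 6 had a pooled promoter summit. The pair nhr-177 and nhr-237 belonged to a cluster of 7 at chrV:1603906-1629432, and all 7 members, nhr-178, nhr-177, nhr-179, nhr-117, nhr-110, nhr-237 and nhr-238, had a pooled promoter summit. The largest cluster, 12 receptors at chrV:451451-497297, had nhr-203 bound and 9 members in the pooled list. These pooled counts stand beside shares of 48.4% over all clustered receptors and 45.8% over all genes. A cluster of 8 at chrV:15674007-15702363 had 2 members in the pooled list. nhr-158 was the bound member of a further cluster of 9, nhr-209 of a cluster of 7, and nhr-291 and nhr-12 of clusters of 3. The pairs nhr-68 with nhr-101, nhr-50 with nhr-63, and nhr-49 with nhr-69 each had 1 bound member. Of 8 clusters of 7 or more receptors, 3 had no bound member. Tandem neighbours can share sequence, and the sources used here do not say how reads with more than 1 place of alignment were treated.

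**Figure D5:**
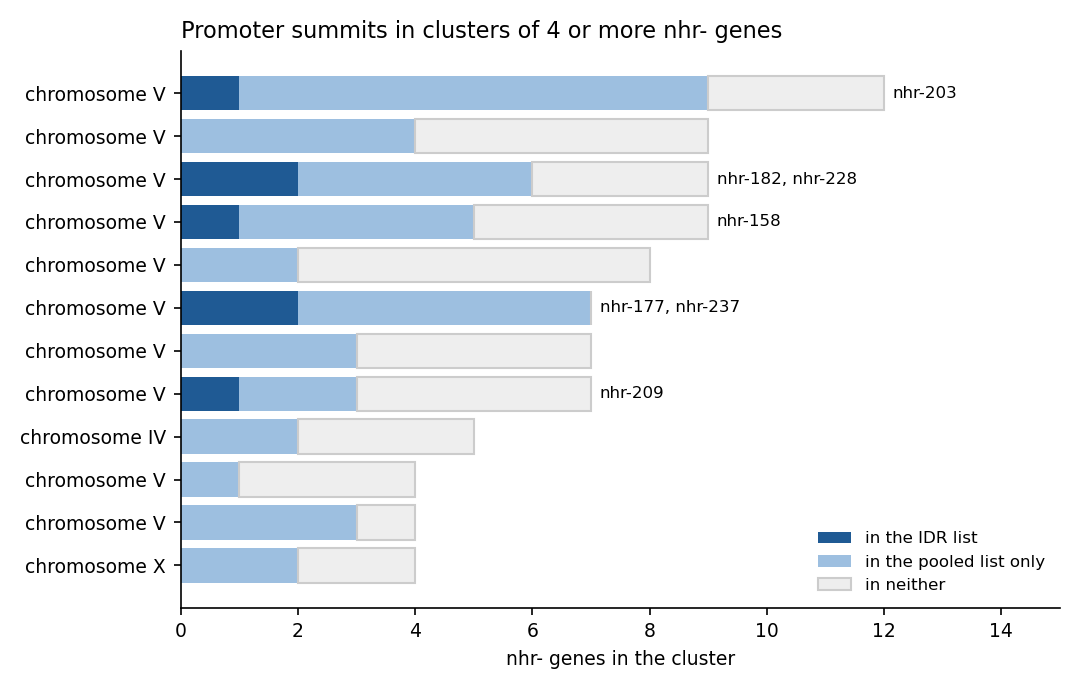
Number of nhr- genes (x axis) in each of the 12 clusters of 4 or more (y axis, labelled by chromosome), divided into genes with a promoter summit in the IDR list, in the pooled list only, and in neither. The bound genes are named; 5 of the 12 clusters hold one, all on chromosome V.

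Receptor genes also had summits of the IDR list outside their promoter windows. In introns lay 8 such summits of 6 receptors, 2.23% of the 269, and 1.27% of all protein-coding genes had an IDR summit in the gene outside the promoter window. nhr-19 had 3, at ranks 254 (signal 61.99), 1464 and 1747, and the first ranked 150 in replicate 1 and 460 in replicate 2. nhr-3 had 1 at rank 464 (signal 49.9; replicate ranks 391 and 653), nhr-17 at 1028, nhr-66 at 1195, nhr-46 at 1303 and nhr-40 at 1427. The nhr-66 and nhr-46 summits had no replicate 1 match. In replicate 1 the nhr-40 summit ranked 4492 and the nhr-17 summit 1319, and the nhr-19 summits at 1464 and 1747 ranked 4153 and 1044. Of the 6 genes, 5 had no promoter summit in the IDR list. In total, 28 receptors, 10.4%, had a summit in the promoter window or in the gene, beside 8.8% of all genes.

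Genes that act with nuclear receptors but lack the nhr- symbol were described as a list of 25, drawn up in the same way, of which 2 were bound, 8% beside 7.75% of all genes. Both encode co-regulators. cbp-1, the CBP/p300 acetyltransferase, ranked 122 with a signal of 81.8, 881 bp upstream, and ranked 145 in replicate 1 and 134 in replicate 2. din-1, the co-repressor that acts with DAF-12, had summits at ranks 664 and 1518. The first ranked 374 in replicate 1 and 912 in replicate 2. The second ranked 729 in replicate 2 and had no replicate 1 match. mdt-15, the Mediator subunit through which NHR-49 and SKN-1 act, had no promoter summit in the pooled list. None of 5 other receptors (daf-12, fax-1, odr-7, sex-1 and unc-55) was bound. Nor was any of 5 genes linked to dafachronic acid levels (daf-9, daf-36, dhs-16, hsd-1 and strm-1). Of 10 genes known to depend on NHR-49, none was bound in the IDR list and 4 had a pooled promoter summit, 40% beside 45.8% of all genes. Of these, icl-1, a glyoxylate cycle enzyme, stood at 2021 and fat-6, a fatty acid desaturase, at 2707.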

How the data were processed

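SKN-1 ChIP-seq peak lists of 2 replicates in 1 group were used, in narrowPeak format on ce11. Per the deposited text, each replicate list came from that replicate and a control, the pooled list from both replicates and the control, and the IDR thresholded list from those 3. The sources used here name no aligner, peak caller or IDR threshold. The deposited signal value is a score on the authors' scale, and q-values were deposited as −log10, with a ceiling of 3.78 in the IDR list. The IDR list equals the 1778 lines of highest signal in the pooled list. The ce10 lists were not used here.

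Summits were computed from the deposited offsets and set against Ensembl release 115 (WBcel235) protein-coding transcripts, by the promoter window from 1000 bp upstream to 200 bp downstream. Replicate summits matched within 100 bp. Clusters joined receptors at most 10 kb apart. The overlap and motif steps were tested on simulated data. Python 3.11.15, pandas 2.3.3 and scipy 1.17.1 were used, with Wilson intervals at the 95% level. Members, gene lists and the rule that names all bound receptors, the highest receptors of the other lists and the listed genes were chosen with earlier results of these data known. Alternatives were other windows, the nearest gene, a single 5′ end, a stricter list, each replicate alone, matched summits, the q-value ceiling, other match, cluster and motif distances, and, added after seeing the data, leaving out summits near tRNA and other small RNA genes. Read depth is unknown, so intervals cover counting error only.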

Additional observations from a re-analysis of the deposited data

How the results depend on the processing

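The receptors' share in the IDR list exceeded that of all genes by 0.805 percentage points, and this difference had no stable sign. It was -0.0414 with a window of 2000 bp upstream, -0.163 with summits matched in both replicates and -0.276 at the q-value ceiling of the pooled list. With a single replicate list cut to 1778 lines it ran from -2.35 (replicate 1 list only) to 0.141. The cause was not tested. With a single replicate the number of bound receptors ran from 12 to 21, of clusters with a bound member from 6 to 7, of consensus summits from 4 to 9, of bound receptors on V from 8 to 12 and on X from 2 to 5, with the lower value always from replicate 1. The 889 IDR peaks of highest signal, fewer by construction, gave 12 bound receptors, 7 on V and 3 on X, with 5 clusters, 6 consensus summits and 10 receptors matched in both replicates. Matching among the highest 1778 lines of each replicate left 9 of 18 matched receptors, and matched summits left 3 on X. For conserved receptors the count was 0 with a window of 500 bp upstream and 2 at the q-value ceiling, and for genes acting with receptors it was 1 and 4. The consensus share of receptor summits exceeded that of other summits by 22.8 to 34.6 percentage points under every alternative run. nhr-1, nhr-104, nhr-182, nhr-228, nhr-47 and nhr-49 were bound under all 10 alternatives, and nhr-255 and nhr-40 were lost under 4 each. Leaving out summits within 200 bp of small structural RNA genes, chosen after seeing the data, left 22 receptors, without nhr-255. No paired analysis was possible because there is only 1 group. Depth is unknown from peak lists, and a receptor outside the lists is not shown to be unbound.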

Other observations

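A second word was noticed under the receptor summits after their sequences had been read. Picking it from these sequences favours high counts among them, alone or with the consensus, so its counts describe these summits only. GCGTCTC, on either strand and centred within 50 bp of the summit, occurred in 7 of 23 receptor summits, 30.4%: nhr-182, nhr-57, nhr-1, nhr-142, nhr-237, nhr-119 and nhr-12. It occurred in 121 of 1148 other promoter summits, 10.5%, and in 1.58% of windows of the same length upstream of all protein-coding genes. It does not overlap the SKN-1 words in spelling. Both the word and the SKN-1 consensus stood under 5 of 23 receptor summits, nhr-182, nhr-57, nhr-237, nhr-119 and nhr-12, and under 9 of 1148 others. The 9 include summits at atx-2 with ecps-1 (rank 52), btbd-10 (rank 113) and acaa-2 (rank 116).

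The base after the SKN-1 consensus was also read. It was C in 8 of 10 receptor matches (80%), in 95 of 155 matches under other promoter summits (61.3%) and in 253 of 1312 matches upstream of all genes (19.3%). The exceptions among receptors were nhr-228 and nhr-291, both followed by T.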
